A study of Homo sapiens with 3 samples.

Results

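The cells described here are HES5 and ANGPT2 mural-like cells of human blood vessel organoids, 112 of the 23805 cells that passed the quality filters. They were chosen by their counts of unique molecular identifiers (UMIs, which tag single captured transcripts). A cell needed at least 1000 UMIs, at least 500 genes, at most 20% mitochondrial UMIs and at least 1 UMI each of HES5, ANGPT2 and PDGFRB. It could not hold UMIs of both KCNJ8 and ABCC9, and it had to hold UMIs of fewer than 3 of the 7 endothelial genes PECAM1, CDH5, CLDN5, TIE1, KDR, CLEC14A and CD93. Because measured values chose the cells, the levels of these 12 genes are given as a description, and every contrast of the chosen cells with other cells is a description with no test. They are called HES5/ANGPT2 cells below.

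The organoids came from the human embryonic stem cell line H1, which is established and widely used, and were taken at day 45 of culture. In all 3 groups the line carried a NEUROD1-P2A-GFP cassette that doxycycline switches on, inserted with a PiggyBac transposon, and BDNF and NT-3, both neurotrophins, were in the medium from day 15. The groups received no doxycycline, or 1 µg/ml for 15 days or for 45 days, and the labels do not say which 15 days. Each group is 1 library of 5 to 6 pooled organoids read with the 10x 3′ v3 chemistry, so there is no replicate spread, no p-value and no way to separate an effect of induction from a difference between organoid pools. The labels do not say whether the line is 1 clone, and they do not name a cell type for any barcode.

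Mural cells, the pericytes and smooth muscle cells that wrap blood vessels, are recruited to endothelium by PDGF-B acting on the receptor PDGFRB. HES5 is a transcriptional repressor of the HES family that Notch receptors switch on through the DNA-binding protein RBPJ, and Notch signals from endothelium are known to drive mural differentiation through NOTCH3. ANGPT2 is a secreted ligand of the endothelial receptor TEK and is best known from endothelial cells at sites of vessel remodelling, while KCNJ8 and ABCC9 form a potassium channel that marks brain pericytes.

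HES5 (ENSG00000197921) lies on chromosome 1 at 2528745 to 2530245 of GRCh38, on the minus strand, and PDGFRB (ENSG00000113721) on chromosome 5 at 150113837 to 150155872, also minus. The upstream sequences of HES5 and of 2 further Notch target genes that stood higher in these cells, HES4 and HEYL, are shown because all hold the core binding letters of RBPJ. They are the 250 bases before the RefSeq transcription start on GRCh38.p14, all from the minus strand, 5′ to 3′, at chr1:2530264-2530513 for HES5, chr1:1000098-1000347 for HES4 and chr1:39639644-39639893 for HEYL. Capitals mark GTGGGAA or its reverse complement TTCCCAC.
HES5: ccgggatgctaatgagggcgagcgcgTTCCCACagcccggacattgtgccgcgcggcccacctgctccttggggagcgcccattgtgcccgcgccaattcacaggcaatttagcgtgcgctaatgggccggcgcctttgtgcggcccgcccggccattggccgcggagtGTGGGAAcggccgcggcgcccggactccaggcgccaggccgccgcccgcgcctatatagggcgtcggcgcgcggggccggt
HES4: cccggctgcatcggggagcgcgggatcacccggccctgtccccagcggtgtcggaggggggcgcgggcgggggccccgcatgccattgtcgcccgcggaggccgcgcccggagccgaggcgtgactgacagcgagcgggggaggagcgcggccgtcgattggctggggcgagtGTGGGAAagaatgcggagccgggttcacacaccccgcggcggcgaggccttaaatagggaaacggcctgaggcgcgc
HEYL: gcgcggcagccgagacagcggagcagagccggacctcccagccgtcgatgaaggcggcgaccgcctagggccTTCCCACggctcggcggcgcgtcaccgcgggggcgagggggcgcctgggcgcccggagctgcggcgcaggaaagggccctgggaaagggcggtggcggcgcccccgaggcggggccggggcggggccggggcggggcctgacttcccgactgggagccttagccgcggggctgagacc
HES5 held the letters at 2 places, starting 224 and 81 bases before the start site, HES4 at 1 place 77 bases before it and HEYL at 1 place 178 bases before it. Over windows from 250 bases before to 50 after the start, the letters were found on either strand in 2194 of 35116 RefSeq promoters (6.25%). Of the 7 genes in the list of Notch targets with HES5 included, 6 had a promoter in the table and 5 of those held the letters (HES1, HES4, HES5, HEY2 and HEYL). Of 18 listed mural identity and pericyte genes, 12 had a promoter there and 1 of those (HEYL) held the letters (8.33%). A match is a run of letters, not evidence of binding.

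The deposited matrices held 10232 barcodes and 59879923 UMIs without induction, 5962 and 49488425 in the library labelled 15 days, and 10765 and 64171327 in the library labelled 45 days. The filters kept 8858, 5303 and 9644 cells, with medians of 5305.5, 7368 and 5697 UMIs. NEUROD1 itself stood at 77 UMIs over the kept cells without induction, of which 74 came from 1 cell, at 68 UMIs in the library labelled 15 days and at 2690 UMIs in the library labelled 45 days. Outside the cell with the most NEUROD1 of each library, 3, 57 and 2634 UMIs were left, so both induced libraries stood above the uninduced one there. Cells with UMIs of at least 8 of 14 neuron markers numbered 0, 271 and 232. The kit reads transcript ends, and the end of the transgene may not map to the annotated gene. Among the HES5/ANGPT2 cells, NEUROD1 had 0, 0 and 1 UMIs. Pairs of libraries shared 13, 33 and 15 barcode sequences among all barcodes, none of them of a HES5/ANGPT2 cell.

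HES5/ANGPT2 cells were present in all 3 libraries as a small share of cells. There were 50 of 8858 cells without induction (0.564%, exact Clopper-Pearson 95% interval 0.419 to 0.744), 25 of 5303 in the library labelled 15 days (0.471%, 0.305 to 0.695) and 37 of 9644 in the library labelled 45 days (0.384%, 0.270 to 0.528). The share was 0.835 times that of the uninduced library at 15 days (interval of the ratio 0.495 to 1.38) and 0.680 times at 45 days (0.432 to 1.06). Both intervals include 1, so no difference in share was detectable at these cell numbers. All intervals here and below cover counting error only, not the spread between organoid pools. Those of summed UMIs also leave out the spread between cells, since UMIs of the same cell enter as separate counts.

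The share depends on depth, since each of the 3 genes has to be captured. When every cell was thinned to 2000 UMIs, only 10 of 8514, 6 of 5019 and 5 of 9140 cells met the rule (0.117%, 0.120% and 0.0547%). The HES5/ANGPT2 cells themselves had medians of 7125, 8511 and 8508 UMIs, above the medians of all kept cells of the same libraries, and ranged from 2592 to 20061 UMIs. Their median mitochondrial share was 5.37%, 5.22% and 4.53%. A removal of likely doublets, applied only as an alternative, took out 7, 0 and 5 of the HES5/ANGPT2 cells, which is 14.0%, 0% and 13.5% of them, against 8.18%, 4.77% and 8.62% of all cells.

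Many cells sat at the edge of the rule. Exactly 1 HES5 UMI was found in 16, 5 and 14 of the HES5/ANGPT2 cells in the order no induction, 15 days and 45 days, and exactly 1 ANGPT2 UMI in 21, 11 and 23. The median HES5 count was 2, 3 and 2 UMIs per cell, with highest cells at 17, 14 and 20, and the median ANGPT2 count was 2, 2 and 1, with highest cells at 10, 9 and 6. PDGFRB had medians of 4.5, 6 and 7 UMIs per cell. None of the 7 endothelial genes had a UMI in 39, 22 and 35 of the cells. Just outside the rule, 20, 27 and 23 cells had the 3 genes together with both KCNJ8 and ABCC9, 1, 4 and 1 cells had the 3 genes with 3 or more endothelial genes, and 1, 3 and 0 cells had HES5 and ANGPT2 without PDGFRB. Of the barcodes that failed the filters, 2 of 1374, 1 of 659 and 0 of 1121 held all 3 genes.

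HES5 was a rare transcript. A HES5 UMI was found in 150, 161 and 195 of the kept cells (1.69%, 3.04% and 2.02%), and the HES5/ANGPT2 cells made up 33.3%, 15.5% and 19.0% of these. Of the cells with HES5, 8%, 14.3% and 20% had no PDGFRB UMI. The HES5/ANGPT2 cells held 37.3% of all HES5 UMIs without induction, 15.8% in the library labelled 15 days and 25.3% in the library labelled 45 days. Cells with both KCNJ8 and ABCC9 held 26.4%, 46.4% and 34.1%, so in the induced libraries more HES5 UMIs lay in those cells than in the HES5/ANGPT2 cells. Epithelial and haematopoietic cells were taken as a rough gauge of free RNA, and whether they made HES5 themselves or were joined cells was not tested. Among epithelial cells a HES5 UMI was found in 0%, 3.19% and 2.02% of cells at median depths of 10603, 8774 and 7107 UMIs. Among haematopoietic cells it was found in 0%, 1.82% and 0% at 4787, 7856.5 and 6115. The share of all kept cells with HES5 thus lay close to that of epithelial cells in the libraries labelled 15 and 45 days. A single HES5 UMI in a cell cannot be told apart from free RNA there.

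HES5 was found more often in PDGFRB cells with ANGPT2 than in those without. Among PDGFRB cells of the uninduced library, 70 of 843 with an ANGPT2 UMI had a HES5 UMI (8.30%, interval 6.53 to 10.4), against 66 of 3438 without one (1.92%, 1.49 to 2.44). The shares were 9.63% against 3.59% in the library labelled 15 days and 9.69% against 2.19% in the library labelled 45 days. After thinning to 2000 UMIs they were 3.97% against 2.12%, 5.34% against 3.93% and 4.17% against 2.14%, and the intervals of each pair then overlapped.

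The main comparisons were with 2 other sets of cells. KCNJ8/ABCC9 cells held a UMI of both channel genes and numbered 212, 330 and 404. Remaining PDGFRB cells had PDGFRB but neither HES5 nor ANGPT2 and were not KCNJ8/ABCC9 cells, and they numbered 3287, 1980 and 3995. All passed the same filters and the same endothelial limit. Within each library the UMIs of a set were added up and scaled to counts per 1e6 UMIs (CPM). A gene was called when log2(CPM + 5) differed by at least 1, in the same direction in all 3 libraries, and only genes at 50 CPM or more in either set in every library were considered.

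The pericyte genes RGS5, MCAM and CSPG4 were among the 10 highest ratios to the remaining PDGFRB cells. RGS5, a regulator of G protein signalling long used as a pericyte marker (chromosome 1 at 163111121 to 163321791, minus strand), had 229, 160 and 155 UMIs in the HES5/ANGPT2 cells, or 560 CPM without induction, 652 in the library labelled 15 days and 452 in the library labelled 45 days. In the remaining PDGFRB cells it stood at 61.1, 78.5 and 46.8 CPM, below the HES5/ANGPT2 cells in each library. The ratios were 9.16 (95% counting interval 7.93 to 10.5), 8.31 (7.0 to 9.80) and 9.65 (8.11 to 11.4). MCAM, the adhesion molecule CD146, stood at 359, 684 and 443 CPM against 43.8, 79.4 and 70.6. CSPG4, the NG2 proteoglycan of pericytes, stood at 95.4, 191 and 125 CPM against 17.2, 27.2 and 22.9. Every one of these values was higher in the HES5/ANGPT2 cells, and the CSPG4 sums rest on only 39, 47 and 43 UMIs.

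Over all genes, 78 of 2570 were higher (3.04%) and 41 lower (1.6%) in the HES5/ANGPT2 cells. Leaving out the HES5/ANGPT2 cell with the most UMIs of each gene, which lowers the level of every gene, gave 54 higher and 63 lower. Of the 18 mural identity and pericyte genes listed, 10 had enough counts, 7 were higher (RGS5, CSPG4, NOTCH3, MCAM, PLXDC1, EBF1 and THY1) and none lower. Their median log2 ratios were 1.96, 2.10 and 1.86, where all genes considered had medians of 0.00, -0.02 and 0.00. Other listed pericyte genes were at or near 0: HIGD1B had 7, 4 and 1 UMIs, COX4I2 3, 8 and 4, VTN 0, 1 and 0, and ATP13A5 none. The label mural-like therefore rests on 7 of the 10 markers that could be counted.

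**Figure D1:**
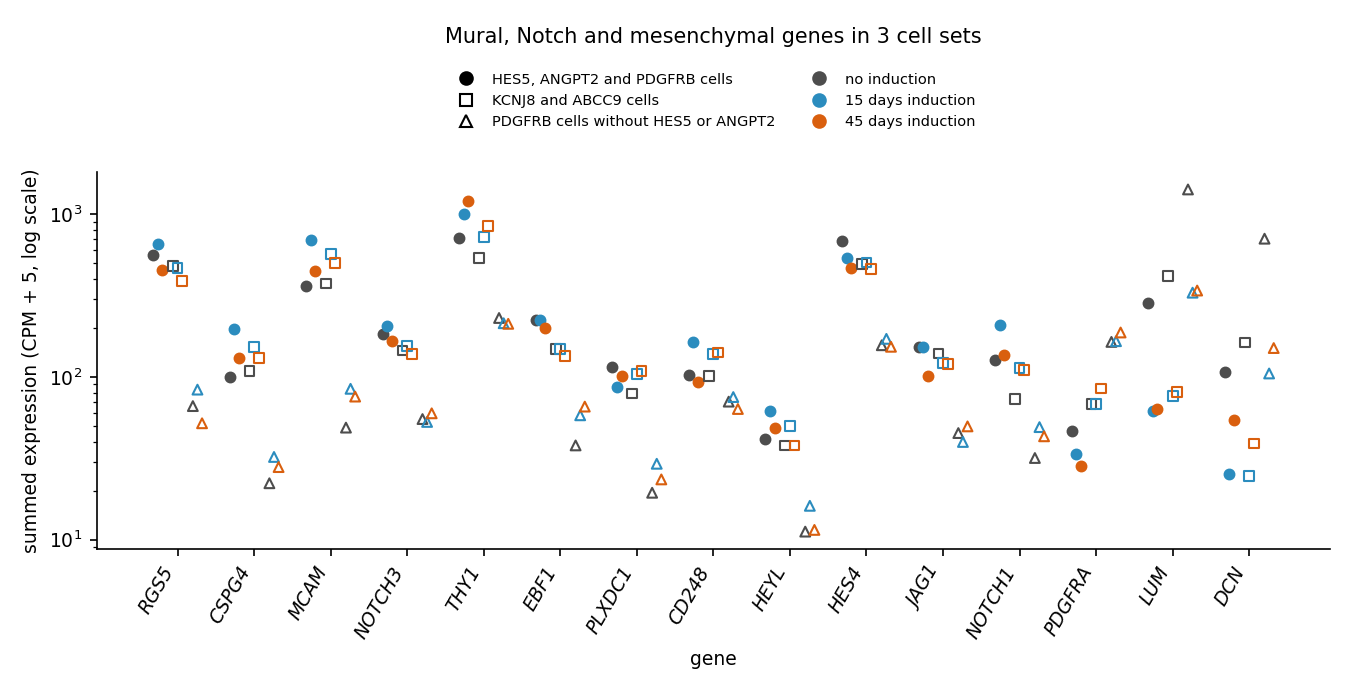
Summed expression of mural, Notch and fibroblast genes on a log scale (CPM + 5) in the HES5/ANGPT2 cells (filled circles), KCNJ8/ABCC9 cells (open squares) and remaining PDGFRB cells (open triangles), coloured by library. Circles and squares of RGS5, MCAM and CSPG4 lie together above the triangles, and the circles of PDGFRA, LUM and DCN lie below the triangles of the same library.

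Per cell the pericyte signature was uneven. After thinning to 2000 UMIs, the median HES5/ANGPT2 cell had 3.5, 4 and 4 of the 18 mural identity genes, and 74.0%, 92.0% and 78.4% of the cells had at least 3. The share was 65.6%, 72.7% and 70.6% in KCNJ8/ABCC9 cells, 11.6%, 17.1% and 14.0% in the remaining PDGFRB cells and 1.74%, 0.820% and 2.97% in epithelial cells. Cells with HES5 and PDGFRB but no ANGPT2 reached 76%, 69.4% and 61.3%. Those with ANGPT2 and PDGFRB but no HES5 reached 37.2%, 29.9% and 28.5%. A high share was thus not particular to the HES5/ANGPT2 cells. An RGS5 UMI was seen in 42.0%, 52.0% and 32.4% of thinned HES5/ANGPT2 cells (64%, 64% and 48.6% unthinned) against 1.45%, 2.05% and 1.60% of thinned epithelial cells. RGS5 was thus absent from the counts of many HES5/ANGPT2 cells, and in the set it was seen far more often than in epithelial cells.

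Notch pathway genes were spread over ligands, receptors and targets. None of the countable ones was called against KCNJ8/ABCC9 cells. The 6 listed targets summed to 910, 925 and 767 CPM in the HES5/ANGPT2 cells and to 760, 835 and 758 in KCNJ8/ABCC9 cells. Among the 6 ligands listed, 2 had enough counts. JAG1, a transmembrane ligand, stood at 147, 147 and 96.2 CPM against 40.1, 34.8 and 44.6 in the remaining PDGFRB cells, and DLK1, an atypical ligand that can dampen Notch, was lower at 279, 175 and 152 CPM against 1521, 412 and 355. Of 4 countable receptor and modulator genes out of 8, NOTCH1 and NOTCH3 were higher. NOTCH3, the main Notch receptor of mural cells, had 73, 49 and 55 UMIs and stood at 178, 200 and 160 CPM against 50, 47.8 and 54.7 (ratios 3.57, 4.17 and 2.93). NOTCH1 stood at 122, 204 and 131 CPM against 26.7, 44.1 and 38.1. NOTCH2 and RBPJ did not reach the call in all libraries: RBPJ stood at 83.1, 102 and 117 CPM, each below the remaining PDGFRB cells at 91.4, 161 and 211.

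The targets differed among themselves. HES4 was seen in 50, 23 and 36 of the HES5/ANGPT2 cells and stood at 677, 534 and 463 CPM against 151, 166 and 148 (ratios 4.47, 3.21 and 3.13), the only one of 3 countable targets out of 6 that was called. HES1, the HES gene most widely used as a Notch readout, stood lower at 51.3, 102 and 52.5 CPM against 117, 167 and 108, short of the call. HEY1 stood at 85.6, 155 and 154 CPM against 33.7, 94.2 and 67.7. HEYL (36.7, 57.0 and 43.7 CPM against 6.18, 11.1 and 6.46) and NRARP (31.8, 40.7 and 32.1 against 3.89, 6.64 and 6.00) were higher in each library. Neither met the 50 CPM floor in every library, so they were not considered for a call. HES4 and HEYL, whose upstream sequences are printed above beside that of HES5, were thus on the high side. HES1 was not, although its promoter window held the same letters. HEY2, whose window also held them, was higher in each library but below the 50 CPM floor. HEY1 and NRARP were also higher in each library but are not among the targets found to hold the letters. Only 6 of the 7 listed targets had a promoter to search, so HEY1 and NRARP were not both searched.

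The largest ratio belonged to AL139246.5 (ENSG00000272449), a long noncoding RNA on the plus strand of chromosome 1 at 2530064 to 2547460, with 68.5, 77.4 and 55.4 CPM against 2.61, 3.02 and 2.11. It overlaps HES5 by 182 bases on the opposite strand, at the start of both genes. The annotated 3′ ends lie outside the overlap, at 2528745 for HES5 and 2547460 for AL139246.5, and the kit reads transcript ends. The sources used here do not say whether counting used strand, and whether reads of 1 gene were counted for the other was not tested. HES5 chose these cells, so the ratio of AL139246.5 is a description only. It had a UMI in 193, 181 and 177 kept cells, of which 45, 50 and 33 also had a HES5 UMI (23.3%, 27.6% and 18.6%), far above the share of HES5 among all kept cells.

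Among transcription factors, MEF2C, a factor of muscle and vascular development, had 174, 169 and 128 UMIs and stood at 425, 688 and 373 CPM against 56.5, 119 and 85.4 (ratios 7.53, 5.76 and 4.37). In KCNJ8/ABCC9 cells it stood at 365, 432 and 331 CPM. HAND2 and PITX1 were lower, and 9 of 24 listed factors were countable. CARMN, a noncoding RNA of the smooth muscle lineage, stood at 636, 969 and 670 CPM against 115, 199 and 156. The contractile genes were mostly not called: 1 of 7 countable genes out of 15, TAGLN, was higher, and LMOD1, DES and MYOCD had no UMI in any HES5/ANGPT2 cell. The countable contractile genes had median log2 ratios of 0.64, 1.19 and 0.95, above the medians of all genes considered, and the summed level of the list was 3416, 3006 and 2818 CPM against 2383, 1507 and 1485.

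Matrix and growth factor genes separated in 2 directions. Of 11 countable basement membrane genes out of 16, COL4A1, LAMA4, LAMC1 and AGRN were higher and none lower. COL4A1, a chain of the collagen of vessel basement membranes, stood at 516, 424 and 411 CPM against 250, 138 and 107. The ligand PDGFA stood at 117, 134 and 87.4 CPM against 13.6, 23.9 and 20.5 (ratios 8.65, 5.62 and 4.27), while its receptor PDGFRA, a fibroblast marker, was lower at 41.6, 28.5 and 23.3 CPM against 159, 161 and 182. Of 8 countable fibroblast markers out of 12, PDGFRA, DCN, LUM and MFAP4 were lower and none higher, with median log2 ratios of -1.84, -1.28 and -1.62. LUM, a small proteoglycan of collagen fibrils, stood at 279, 57.0 and 58.3 CPM against 1414, 324 and 334. IGFBP5, a binding protein of insulin-like growth factors, stood at 46.5, 53.0 and 58.3 CPM against 301, 224 and 231.

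Marker lists of other cell types were summed in the same way. The summed endothelial markers outside the rule stood at 399, 729 and 563 CPM in the HES5/ANGPT2 cells, against 257, 474 and 323 in the remaining PDGFRB cells, and VWF, ROBO4, SOX17 and APLN had no UMI in any library. TEK, the ANGPT2 receptor, had 2, 1 and 0 UMIs. Neuron markers summed to 242, 428 and 510 CPM, below the remaining PDGFRB cells at 312, 1523 and 739, with STMN4, ELAVL4, INA and TUBB3 at 0. Haematopoietic markers summed to 48.9, 28.5 and 20.4 CPM with C1QB, FCER1G, PTPRC and LYZ at 0, epithelial markers to 301, 163 and 111 CPM with CDH1 and TP63 at 0, and all 7 skeletal muscle markers were at 0. Fibroblast markers summed to 3382, 2293 and 1991 CPM, against 10258, 3673 and 3848. The part of free RNA or of joined cells in these sums was not tested.

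Against the KCNJ8/ABCC9 cells there was little difference. Of 2552 genes, 1 was higher (0.0392%) and 6 lower (0.235%). None of 11 countable mural identity genes was called in either direction, with medians of 0.23, 0.28 and -0.10 (log2), and RGS5 stood at 475, 460 and 382 CPM in KCNJ8/ABCC9 cells, close to the 560, 652 and 452 CPM of the HES5/ANGPT2 cells. KCNJ8 itself was detected in 20, 18 and 21 of the HES5/ANGPT2 cells and ABCC9 in 4, 1 and 2. The rule removes cells with both, so these counts are partly set by it. No gene of 2441 was called between the HES5/ANGPT2 cells and the 50, 49 and 64 cells with HES5 and PDGFRB but no ANGPT2 (0% in either direction), while 29 of 2554 were higher (1.14%) and 20 lower (0.783%) against the 701, 391 and 477 cells with ANGPT2 and PDGFRB but no HES5.

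The 1 higher gene was SFRP2, a secreted WNT modulator, with 124, 26 and 61 UMIs or 303, 106 and 178 CPM, against 45.6, 13.8 and 60.1 in the KCNJ8/ABCC9 cells. The ratios were 6.64 (4.99 to 8.89), 7.65 (4.56 to 12.6) and 2.96 (2.19 to 3.96). SFRP2 came from 21 of 50, 3 of 25 and 6 of 37 cells, and a single cell gave 24 of the 26 UMIs in the library labelled 15 days and 24 of the 61 in the library labelled 45 days, so its height there rests on a few cells. SFRP2 is also among the genes that lead cluster 8, described below, and within cluster 1 it was not called, at 120, 9.08 and 192 CPM against 34.5, 17.6 and 43.2. The lower genes were IGFBP5, CD36, KRT18 and the cycling genes TOP2A, CENPF and UBE2C. IGFBP5 stood at 157, 159 and 286 CPM in KCNJ8/ABCC9 cells, and it too was not called within cluster 1. In that cluster the medians of their log2 ratios over the 3 libraries were 0.45 for TOP2A, 0.84 for CENPF and 0.63 for UBE2C. Cells with UMIs of at least 3 of 12 cycling genes were 32.0%, 32.0% and 18.9% of the HES5/ANGPT2 cells and 25.5%, 22.1% and 22.5% of KCNJ8/ABCC9 cells, so the share of cycling cells was not lower in the first 2 libraries although these mitotic transcripts were.

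When all kept cells were clustered without the 12 rule genes, the HES5/ANGPT2 cells fell mainly into 2 clusters. Cluster 1, led by FABP4, MMP9, MIR4435-2HG and KCNJ8 with MCAM among its top 10, held 17 of 50, 21 of 25 and 25 of 37 of them (34.0%, 84.0% and 67.6%). Cluster 8, led by ALDH1A2, ANGPT2, SFRP2 and IGF1, held 23, 2 and 8 (46.0%, 8% and 21.6%). A cluster led by TOP2A and CENPF, genes of mitosis, held 5, 1 and 2, and the rest were scattered. Cluster 8 thus held more of the uninduced HES5/ANGPT2 cells than any other cluster, and cluster 1 most of the others. Cluster 8 as a whole also lay mainly in the uninduced library, with 703, 164 and 210 cells, and the part of library composition in the shift was not tested. The clusters are given by number and leading genes, with no cell type name.

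**Figure D2:**
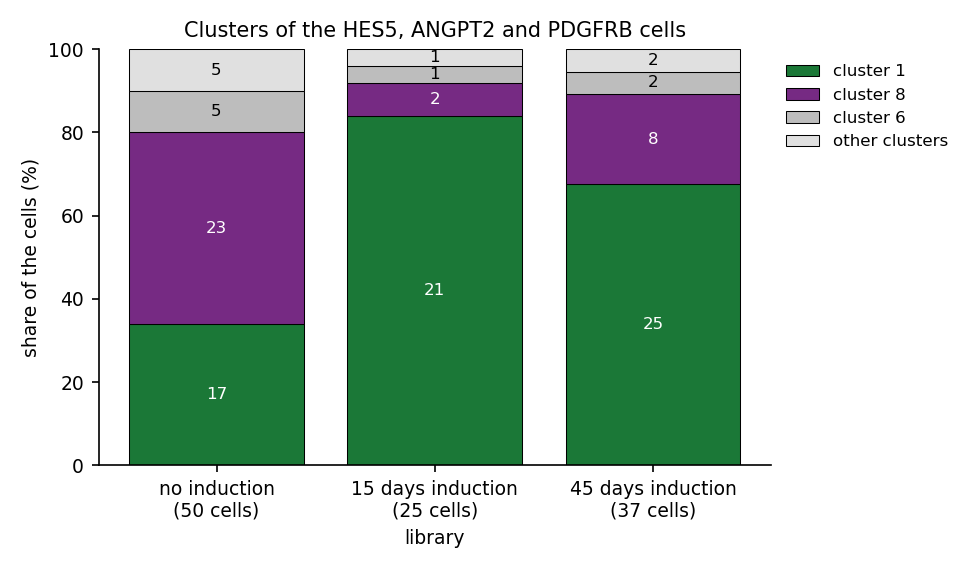
Share of the HES5/ANGPT2 cells of each library (y axis, percent) in cluster 1, cluster 8, cluster 6 (led by TOP2A and CENPF) and other clusters, with cell numbers inside the bars. Cluster 8 holds 23 of 50 uninduced cells, and cluster 1 holds 21 of 25 and 25 of 37 cells of the libraries labelled 15 and 45 days.

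Of the KCNJ8/ABCC9 cells, 70.3% were in cluster 1 and 4.12% in cluster 8, beside 29.5% of the HES5/ANGPT2 cells in cluster 8. Cluster 8 held 18.4% of the cells with HES5 and PDGFRB but no ANGPT2 and 18.6% of those with ANGPT2 and PDGFRB but no HES5. ANGPT2, a gene of the rule, is among the genes that lead cluster 8, and these shares pool libraries that differ in them. Among the 15 nearest neighbours of a HES5/ANGPT2 cell, 7.92% were HES5/ANGPT2 cells (0.470% of all kept cells), 29.3% KCNJ8/ABCC9 cells (3.97% of all) and 0.238% endothelial cells (4.87% of all). Cells with HES5 and PDGFRB but no ANGPT2 made up 6.73% (0.685% of all), and those with ANGPT2 and PDGFRB but no HES5 22.6% (6.59% of all). These sets, the HES5/ANGPT2 cells and the KCNJ8/ABCC9 cells were thus all over-represented among the neighbours against their share of all cells. Endothelial cells were under-represented. Of all the neighbours, 55.1% came from the same library as the cell.

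Within cluster 1 the contrast with the remaining PDGFRB cells of the same cluster (198, 443 and 540 cells) shrank to 10 higher and 6 lower genes of 2590. RGS5, FJX1, SLCO3A1, CCDC102B and AL139246.5 were among the higher ones. RGS5 stood at 704, 644 and 558 CPM against 346, 190 and 215. Others were SPON2, SEMA5A, SH3KBP1 and METRNL, named here after their values were seen. METRNL, a secreted protein, stood at 189, 123 and 154 CPM against 45.0, 37.3 and 56.3, from 22, 27 and 37 UMIs. Lower were IGFBP5 (68.7, 59.0 and 62.5 CPM against 769, 301 and 381), KRT18, TIMP3 and, also named after the fact, LIMCH1, HSD17B11 and IGDCC3. MCAM and CSPG4, called over all cells, were not called within the cluster, where MCAM stood at 455, 735 and 529 CPM against 253, 233 and 361.

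Induction was compared within the HES5/ANGPT2 cells, library against library. Both induced libraries are set against the same uninduced one, so the comparisons share its 50 cells and 408975 UMIs. A gene was called when log2(CPM + 5) differed by at least 1 between the libraries, among genes at 50 CPM or more in either. In the library labelled 15 days, 235 of 3141 genes were higher (7.48%) and 59 lower (1.88%). In the library labelled 45 days, 158 of 3041 were higher (5.2%) and 41 lower (1.35%). Between the induced libraries, 85 of 3309 genes were higher at 45 days (2.57%) and 125 lower (3.78%). All 3 contrasts in the remaining PDGFRB cells, which hold many more cells, called fewer genes in total: 74 and 56 of 2917 (2.54% and 1.92%), 29 and 52 of 2852 (1.02% and 1.82%) and 11 and 26 of 2911 (0.378% and 0.893%). The KCNJ8/ABCC9 cells called 21 and 35 of 2988 (0.703% and 1.17%), 36 and 31 of 2977 (1.21% and 1.04%) and 4 and 6 of 3019 (0.132% and 0.199%). In these sums 50 CPM is 20.4 UMIs without induction, 12.3 in the library labelled 15 days and 17.2 in the library labelled 45 days, so calls near the floor rest on few UMIs. The shares of higher and lower calls also depend on scaling: with median-of-ratios scaling 190 were higher and 83 lower for 15 days, and 135 and 55 for 45 days.

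MMP9, a secreted gelatinase that cuts basement membrane collagen, was among the 10 highest ratios for each induced library. It had 59 UMIs without induction, 251 in the library labelled 15 days and 436 in the library labelled 45 days, or 144, 1022 and 1271 CPM. The ratios to the uninduced library were 7.09 (5.32 to 9.58) and 8.81 (6.70 to 11.8), and 45 days over 15 days was 1.24 (1.06 to 1.46). The highest single cell gave 18, 66 and 86 of these UMIs, and the cells with MMP9 numbered 15 of 50, 13 of 25 and 23 of 37. After thinning, MMP9 was seen in 18.0%, 32.0% and 51.4% of HES5/ANGPT2 cells (30.0%, 52.0% and 62.2% unthinned) and in 2.03%, 0.410% and 2.75% of epithelial cells. The KCNJ8/ABCC9 cells were less far apart, at 287, 481 and 711 CPM, and the remaining PDGFRB cells stood at 72.1, 47.5 and 103. In the KCNJ8/ABCC9 cells 41, 92 and 148 cells had MMP9, and the median was 0 in each library. Their highest cells held 237, 671 and 360 MMP9 UMIs per 10000 UMIs of the cell, so these sums also rest in part on few cells.

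MGP, an inhibitor of calcification made by vascular cells, had 82, 152 and 337 UMIs, or 201, 619 and 982 CPM. Its ratios were 3.09 (2.35 to 4.09) and 4.90 (3.84 to 6.31), and 1 cell gave 136 of the 337 UMIs in the library labelled 45 days. With at least 2 UMIs required of HES5 and of ANGPT2, which leaves 39 cells in all, the log2 difference of MGP at 45 days was -0.43. In KCNJ8/ABCC9 cells MGP stood at 248, 299 and 487 CPM and in the remaining PDGFRB cells at 298, 156 and 113, so it lay lower in the induced libraries there.

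**Figure D3:**
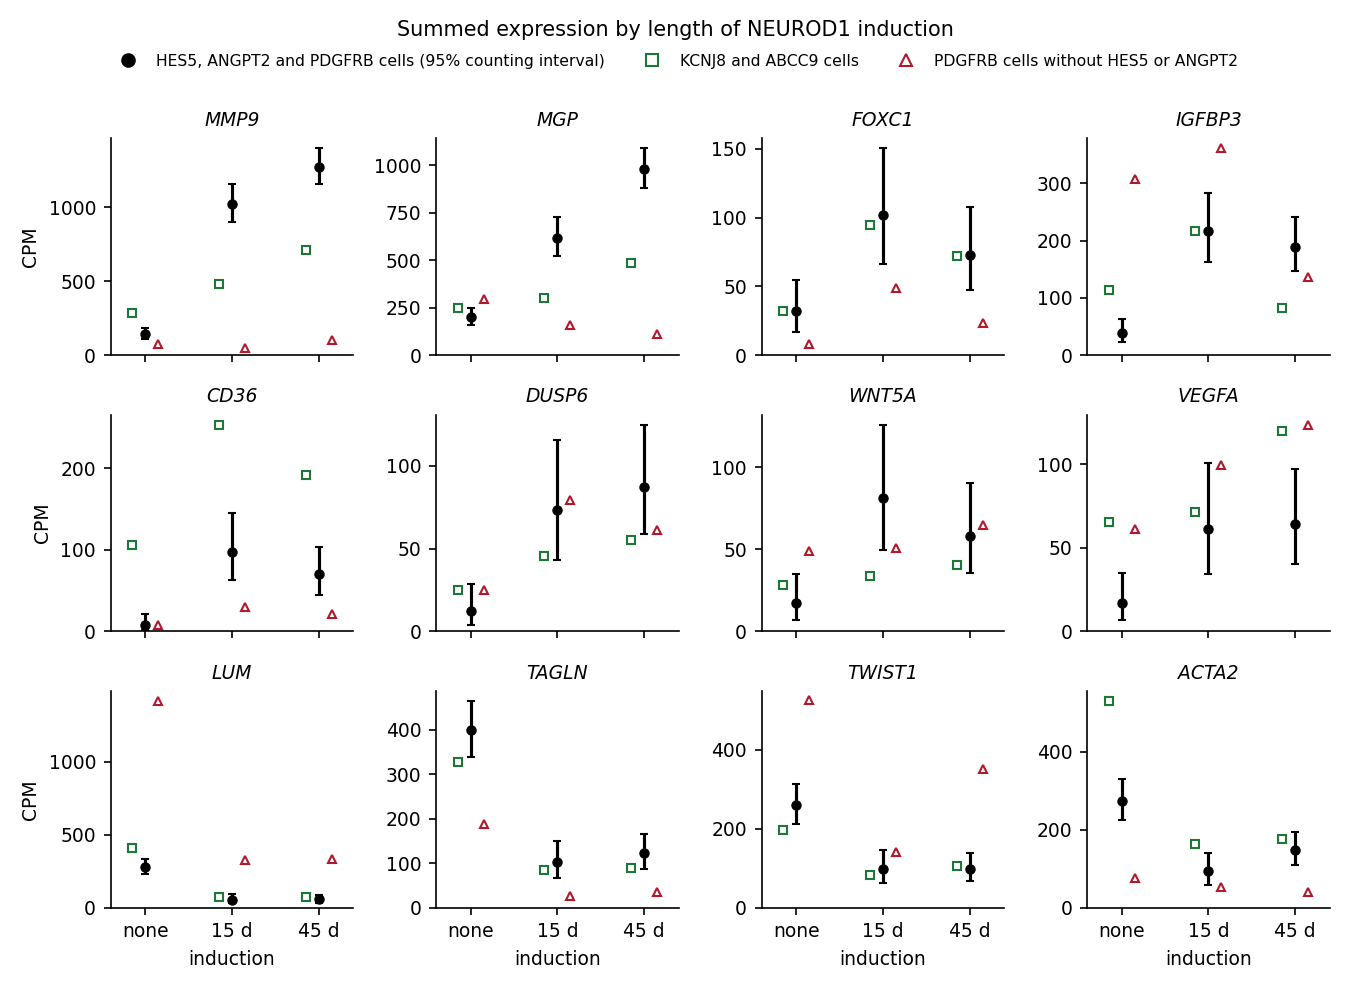
Summed expression (CPM, linear axes) of 12 genes by library in the HES5/ANGPT2 cells (black, with exact Poisson 95% counting intervals), KCNJ8/ABCC9 cells (squares) and remaining PDGFRB cells (triangles). MMP9 stands at 144, 1022 and 1271 CPM in the HES5/ANGPT2 cells, while LUM stands at 279, 57.0 and 58.3.

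Since the HES5/ANGPT2 cells of the libraries lay in these clusters in different shares, the same genes were read within cluster 1. MMP9 stood at 85.8 CPM in its 17 uninduced cells (10 UMIs), 894 in the 21 cells of the library labelled 15 days and 1212 in the 25 of the library labelled 45 days. MGP stood at 25.8 (3 UMIs), 631 and 1087 CPM. Both were at least as far apart between the libraries inside the cluster as over all HES5/ANGPT2 cells. For MGP this sets 3 uninduced UMIs against a sum at 45 days that rests largely on 1 cell. That is the cell with the highest MGP count, which lies in cluster 1. In cluster 8, where only 2 cells of the library labelled 15 days lay, MMP9 stood at 127 CPM without induction and 1013 in the library labelled 45 days, and MGP at 409 and 833.

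**Figure D4:**
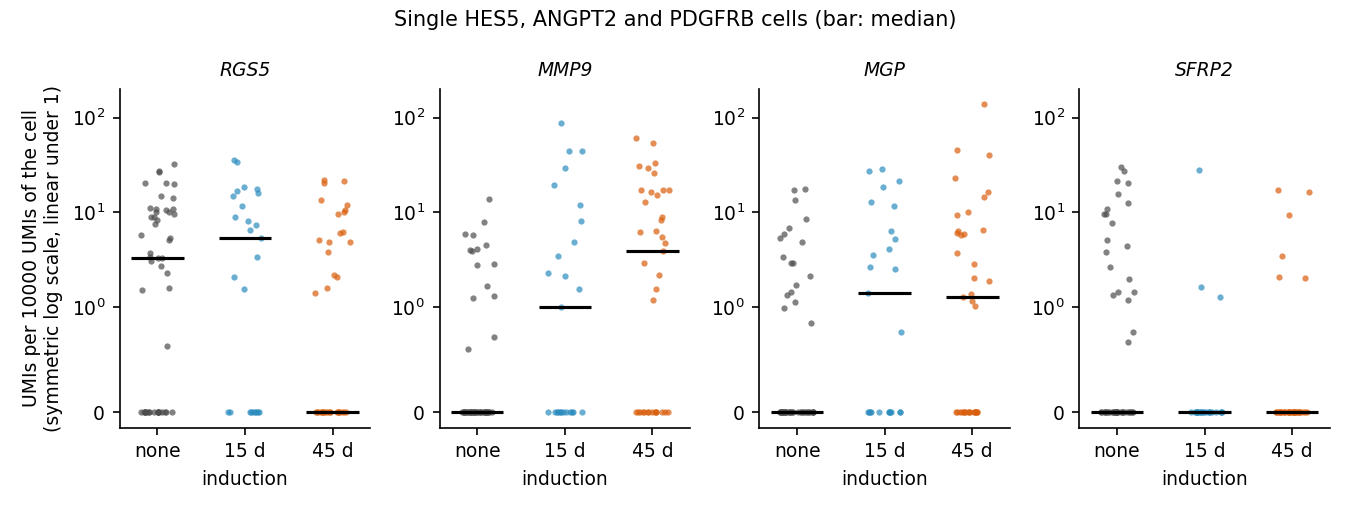
UMIs per 10000 UMIs of the cell for RGS5, MMP9, MGP and SFRP2 in single HES5/ANGPT2 cells of each library, on a symmetric log axis that is linear under 1, with the median as a bar. Each panel has many cells at 0, and 1 cell of the library labelled 45 days stands above the rest for MGP.

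Other genes of the induction contrasts rest on few cells. CD36, a fatty acid transporter, had 3, 24 and 24 UMIs, of which 1 cell gave 13 at 15 days and 16 at 45 days, and in the same 39 cells its log2 difference at 45 days was -2.15. FABP4, a fatty acid carrier, had 0, 12 and 20 UMIs. With 3 UMIs set in place of 0 in the uninduced library, these levels are 6.66-fold and 7.95-fold higher. A single cell gave 14 of the 20 UMIs, and at 48.9 CPM the library labelled 15 days was under the 50 CPM floor, so FABP4 was not called there. In KCNJ8/ABCC9 cells it stood at 41.2, 269 and 170 CPM. CXCL2 and FMO1, the top 2 genes for 15 days, had all of their 19 and 13 UMIs in 1 cell each. IGFBP3 had 16, 53 and 65 UMIs, of which 1 cell gave 26 in each induced library. VEGFA, the main angiogenic growth factor, had 7, 15 and 22 UMIs, or 17.1, 61.1 and 64.1 CPM, which in the induced libraries was still below the remaining PDGFRB cells at 99.7 and 124. DUSP6, a phosphatase that ERK signalling induces, had 5, 18 and 30 UMIs, and WNT5A, a WNT ligand, 7, 20 and 20.

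Among lower genes, LUM had 114, 14 and 20 UMIs, or 279, 57.0 and 58.3 CPM, which is 4.89-fold lower (2.80 to 9.22) in the library labelled 15 days and 4.78-fold lower (2.96 to 8.12) in the library labelled 45 days. It lay lower in the other sets too, at 413, 70.9 and 75.6 CPM in KCNJ8/ABCC9 cells and 1414, 324 and 334 in the remaining PDGFRB cells. TAGLN, an actin-binding protein of smooth muscle, had 163, 25 and 42 UMIs, or 399, 102 and 122 CPM, which is 3.91-fold (2.56 to 6.23) and 3.26-fold lower (2.31 to 4.69). TAGLN stood at 464, 113 and 112 CPM inside cluster 1, and lay lower in the induced KCNJ8/ABCC9 cells as well, at 328, 85.9 and 90.3 CPM. ACTA2, smooth muscle actin, stood at 274, 93.7 and 149 CPM.

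TWIST1, a mesenchymal transcription factor, differed in direction between all HES5/ANGPT2 cells and those of cluster 1. Over all HES5/ANGPT2 cells it stood at 259, 97.8 and 99.1 CPM, lower in both induced libraries. Inside cluster 1 it stood at 34.3 CPM without induction, 109 in the library labelled 15 days and 75 in the library labelled 45 days, higher in both, from 4, 24 and 18 UMIs. The uninduced cells of cluster 8 stood at 348 CPM. CXCL14 and MFAP4, among the lowest genes for 15 days, had 27 and 22 UMIs without induction and 2 UMIs each in the library labelled 15 days. Within cluster 1 both differed by 0.051 (log2, higher). With at most 2 UMIs there in the library labelled 15 days, that value cannot show whether they differed within the cluster.

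The counts by list stand beside 7.48% higher and 1.88% lower of all genes in the library labelled 15 days, and 5.2% and 1.35% in the library labelled 45 days. The mural identity genes had 2 of 13 countable genes higher in the library labelled 15 days, FOXS1 and GJA4, and none lower, with a median of 0.57 (log2) against 0.21 over all genes. At 45 days none of 12 was called and the median was -0.15 against 0.13. Of the Notch lists, only NOTCH2 was called, higher at 15 days (90.5 CPM without induction, 200 at 15 days, 143 at 45 days), and 0 of 4 and 0 of 3 countable targets were called. HES4 stood at 677, 534 and 463 CPM. Of 7 countable fibroblast markers, DCN, LUM, TWIST1 and MFAP4 were lower at 15 days (median -1.36) and LUM and TWIST1 at 45 days (median -0.78). Of 6 countable cycling genes, TOP2A, CDK1 and TYMS were lower at 15 days and TOP2A and TYMS at 45 days, and TOP2A had 28, 4 and 6 UMIs in all. Cells with at least 3 cycling genes were 32.0% of the HES5/ANGPT2 cells both without induction and in the library labelled 15 days, and CDK1 had 0 and 3 UMIs in the cells of those libraries within cluster 1, a log2 difference of 1.90 in the other direction. FOXC1 and NR2F1, transcription factors of mesenchyme, were higher in both induced libraries, with 13, 25 and 25 and 8, 24 and 20 UMIs. Endothelial markers outside the rule had PLVAP and SOX18 higher at 15 days among 5 countable genes, with 7, 26 and 8 UMIs of PLVAP, beside the summed level of the list of 399, 729 and 563 CPM given above. No basement membrane gene was called at 45 days, and at 15 days LAMB2 was higher and LAMB1 lower.

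The induced libraries also differed from each other in single genes with few UMIs. TNC, the matrix protein tenascin C, had 14, 1 and 23 UMIs and SPARCL1, a matrix-associated glycoprotein, 17, 2 and 21, or 34.2, 4.07 and 67.0 CPM and 41.6, 8.15 and 61.2 CPM, so both were lowest in the library labelled 15 days. CA4, a membrane carbonic anhydrase of capillaries, had 5, 20 and 0 UMIs, the 20 of them in 4 cells. NDUFA4L2 and GJA4 of the mural list were lower at 45 than at 15 days, with 257 against 108 CPM and 138 against 55.4 CPM, and none of the 13 countable mural genes was higher.

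The ratio of RGS5 to the remaining PDGFRB cells lay between 8.31 and 9.65 in the 3 libraries, that of NOTCH3 between 2.93 and 4.17 and that of HES4 between 3.13 and 4.47. None of these genes was called against the KCNJ8/ABCC9 cells. HES5 itself stood at 411, 403 and 434 CPM in the chosen cells and ANGPT2 at 315, 289 and 201, values that the rule fixes in part.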

How the data were processed

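Per the labels, papain-dissociated cells (20 U/mL, 30 min, 40 µm filter) of 3 organoid pools were captured on a Chromium Chip B with the 3′ v3 kit. The deposited values are UMI counts per gene and barcode with no normalization. Per the submitters' processing notes they come from Cell Ranger 3.0.0 on GRCh38, and the file headers name version 3.0.1. The annotation, and whether counting used strand, are not given in the sources used here. The 3′ chemistry counts transcript ends, and free RNA enters all droplets. Coordinates are from GENCODE 29 (33456 of 33538 identifiers matched) and promoters from RefSeq.

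The members and the 26 gene lists were chosen with earlier results of these data known. Counts were summed per cell set and library, scaled to CPM and compared as log2(CPM + 5), with a 50 CPM floor and a call at a difference of 1. Intervals are exact at 95% (Poisson, Clopper-Pearson, conditional binomial). With 1 library per group no test across libraries exists. Named genes are the genes of the rule, those of the lists and the 10 highest and 10 lowest called ratios of each comparison, without mitochondrial, ribosomal and sex-linked genes. Others are marked in the text.

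Epithelial cells held at least 3 of 6 epithelial markers and haematopoietic cells at least 4 of 9. Clustering used scanpy 1.11.5 (2000 variable genes without the 12 rule genes, 30 components, 15 neighbours, Leiden resolution 1 with leidenalg 0.10.2), in Python 3.11.15 with numpy 2.4.6 and scipy 1.17.1. Doublets were kept in the main results. The calling rule and the counting interval were tried on simulated sums that held counting error only, with no spread between cells. Alternatives changed the rule, the floor, the scaling, the added CPM, depth, cycling cells and doublets. Some called genes are not reported here.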

Additional observations from a re-analysis of the deposited data

Results flagged for a closer look

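IGFBP3, a binding protein of insulin-like growth factors, differed in direction between libraries in the contrast of HES5/ANGPT2 with KCNJ8/ABCC9 cells. Its log2 ratio was -1.43 without induction, -0.0078 in the library labelled 15 days and 1.15 in the library labelled 45 days. The HES5/ANGPT2 cells had 16, 53 and 65 UMIs (39.1, 216 and 189 CPM), and the KCNJ8/ABCC9 cells stood at 114, 217 and 82.4 CPM. A single HES5/ANGPT2 cell gave 26 of the UMIs in each induced library. With 1 library per group this difference was not tested.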

How the results depend on the processing

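No paired analysis was possible because each group is 1 library and the labels pair no samples. The number of genes called was 119 against the remaining PDGFRB cells, 7 against KCNJ8/ABCC9 cells, and 294, 199 and 210 for 15 days over none, 45 days over none and 45 over 15 days. Adding 1 CPM, another scaling, the mean of single-cell CPM, cells with 5000 UMIs or more, and leaving out doublets or the deepest cells kept every one of these within 1.5 times. In the same order, a floor of 20 CPM gave 215, 14, 1058, 824 and 982, no floor 298, 31, 2122, 1862 and 2342, and a floor of 200 CPM 24, 0, 31, 15 and 7 (more or fewer genes enter). Requiring 2 UMIs of HES5 and of ANGPT2 left 39 cells with shares of 0.226%, 0.207% and 0.083% and 714, 775 and 853 induction calls. Thinning gave shares of 0.117%, 0.120% and 0.0547%. Counting KCNJ8/ABCC9 cells with the 3 genes gave 0.790%, 0.981% and 0.622%, 3 calls against KCNJ8/ABCC9 cells and 123, 112 and 78 induction calls. Without cycling cells the induction calls were 500, 356 and 427. Against KCNJ8/ABCC9 cells, cells with no endothelial UMI gave 4 calls and leaving out each gene's top cell 12. Within cluster 1 there were 16, 3, 578 and 590 calls for the first 4.

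On the log2 scale, with the median over libraries for contrasts between cell sets, requiring 2 UMIs turned MGP against KCNJ8/ABCC9 cells to -0.076, MGP for 45 days over none to -0.43 and CD36 to -2.15, and a limit of 10% mitochondrial UMIs turned CXCL2 for 45 over 15 days to 0.68. Within cluster 1, KRT19 became 0.18 and CD36 -0.20 against the remaining PDGFRB cells, TOP2A 0.45, CENPF 0.84 and UBE2C 0.63 against KCNJ8/ABCC9 cells, CXCL14 0.051, MFAP4 0.051, CDK1 1.90 and TWIST1 1.53 for 15 days over none, and TWIST1 1.02 for 45 days over none. Fewer cells enter each of these, and other causes were not tested. Depth limits the shares, and the cell numbers limit every induction value. Settings beyond the planned ones (the 200 CPM floor, counting KCNJ8/ABCC9 cells, the top cell, cluster 1) were chosen after seeing the data.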
